A study of Mus musculus with 12 samples.

Results

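Translation initiation factors bring the ribosome to the start codon of an mRNA, and aminoacyl-tRNA synthetases load each transfer RNA with its amino acid. A total of 86 genes of these 2 kinds are described here in mouse bone marrow LSK cells, of 55487 genes listed in the deposited tables. They were chosen by symbol (the Eif1 to Eif6 names without the Eif2ak kinases and the Y-linked Eif2s3y, the 1-letter "ars" names of synthetases, and Eprs, Farsa and Farsb) and by a mean of at least 1 TPM over the 12 libraries. TPM is a level corrected for transcript length, so it can be compared between genes, and its total is the same for each library. The symbol rule alone gave 88 genes, and the other two, Eif2c5 and Eif4e1b, lay under that mean. Of the members, 49 are initiation factors and 37 are synthetases.

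The series holds RNA-seq of sorted LSK cells, the lineage-negative marrow fraction that carries Sca1 and c-Kit and contains the haematopoietic stem cells and early progenitors. There were 4 libraries of each of 3 genotypes: Yy1+/+ as the wild-type control, Yy1-/-, and Yy1-/- Smc3+/-. Yy1 encodes the zinc finger factor Yin Yang 1, which can activate or repress transcription, and Smc3 encodes a subunit of the cohesin ring. The series title places the study in the question of how YY1 acts on SMC3 in stem cells. The deletion driver, the age and sex of the mice, any pooling of animals and any batch are not given in the sources used here, so the p-values below measure the spread between these libraries.

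Initiation begins when eIF2 carries the initiator methionyl-tRNA to the small ribosomal subunit, which also binds eIF1, eIF1A and the large scaffold eIF3. The mRNA is brought by eIF4E, which binds its cap, by the scaffold eIF4G and by the helicase eIF4A, after which eIF5 and eIF5B let the large subunit join. Phosphorylation of eIF2 by stress kinases blocks its recycling by eIF2B, lowers overall translation and raises that of ATF4, a factor that turns on genes of amino acid synthesis and several cytosolic synthetases.

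The summed expected counts lay between 38671354 and 69086104 per library, and Yy1+/+ replicate 2 was the deepest. Yy1 was at 8.14 to 8.80 TPM in Yy1+/+, at 0.07, 0.20, 0.96 and 2.65 TPM in Yy1-/- replicates 1 to 4, and at 0.16, 0.18, 0.87 and 0.20 TPM in Yy1-/- Smc3+/-. Smc3 was at 40.7 to 71.3 TPM in Yy1+/+, 44.9 to 75.7 in Yy1-/- and 66.5 to 98.9 in the libraries labelled Yy1-/- Smc3+/-, so its mRNA did not set the Smc3+/- label apart as lower, and that genotype is named as labelled. The sort marker genes were present in all libraries, with Ly6a, which encodes Sca1, at 314 to 758 TPM, while Kit ran from 99.1 to 302 TPM in Yy1+/+ and from 20.7 to 98.7 in the other 8. Of 12 LSK markers 9 fell in Yy1-/- and 8 in Yy1-/- Smc3+/-, against Yy1+/+, and 1 rose in each. Of all genes 18.8% and 16.7% fell. All 15 genes of a mitosis list rose in both. Monocyte and macrophage markers, 10 genes, summed to 613 to 1332 TPM in Yy1+/+, to 5589, 4263, 468 and 710 in Yy1-/- replicates 1 to 4, and to 589 to 1433 in Yy1-/- Smc3+/-, and 9 of the 10 rose in Yy1-/- and 6 in Yy1-/- Smc3+/-. The 9 erythroid markers summed to 627 to 1736 TPM in Yy1+/+, 24.5 to 1182 in Yy1-/- and 17.6 to 745 in Yy1-/- Smc3+/-, the 9 T and NK cell markers to 380 to 639, 85.1 to 437 and 129 to 528, and the 10 neutrophil markers to 3191 to 13510, 5657 to 20040 and 3921 to 19800. Of the T and NK markers 4 rose and 1 fell in each comparison with Yy1+/+. Their log2 fold changes were above 0 for 7 in each, so the sum does not stand for each marker. Of the erythroid markers 0 rose in either, and 2 and 3 fell. Of the neutrophil markers 2 and 1 rose and 0 fell. The 10 B and plasma cell markers summed to 1239 to 3723, 1323 to 3845 and 2790 to 4720 TPM, and 0 and 2 rose and 1 fell in each. Y-linked Eif2s3y was detected in 2 libraries of Yy1+/+, 1 of Yy1-/- and 4 of Yy1-/- Smc3+/-, so the libraries differ in sex makeup. The part of these differences in the results below was not tested, and in bulk RNA fewer cells of a type and less RNA per cell cannot be told apart.

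All 86 members passed the filter on low counts and were tested with 16649 genes in edgeR's quasi-likelihood model, on counts scaled by library (TMM). A member is said to have risen or fallen where the p adjusted over all genes (Benjamini-Hochberg) lay below 0.05. Against Yy1+/+, 36 members rose and 4 fell in Yy1-/-, where 16.3% of all tested genes rose and 18.8% fell. The members' median log2 fold change was 0.31, against 0.01 for all genes tested. In Yy1-/- Smc3+/- 29 members rose and 4 fell, where the same shares of all genes were 13.1% and 16.7%, with a median of 0.32 against 0.02. Counts of smaller groups and lists below stand beside these same shares. Both comparisons use the same Yy1+/+ libraries and so are not independent of each other. In both, 25 members rose and Eif1ax, Eif4a2 and Wars2 fell. On scaled counts, all 4 Yy1-/- libraries lay above all 4 Yy1+/+ libraries for 25 members and below for 5, where these shares of all genes were 13.4% and 17.5%. For Yy1-/- Smc3+/- the numbers were 33 and 4, where the shares of all genes were 14.7% and 17.6%. An unadjusted p under 0.05 was reached by 50 members in Yy1-/- and 48 in Yy1-/- Smc3+/-, and by 45.3% and 41.4% of all genes.

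The size of these counts depends on the libraries and on the scale. In Yy1-/- Smc3+/- 18 members rose when Yy1+/+ replicate 1 was left out (9.12% of all genes), and 19 when replicate 2 of the Yy1-/- Smc3+/- libraries was (9.84%). Leaving out any 1 library gave 24 to 42 rises in Yy1-/-, where 12.6% to 16.5% of all genes rose. Without Yy1+/+ replicate 2 and Yy1-/- replicate 1, which stood apart from their groups, 34 members rose in Yy1-/- and 38 in Yy1-/- Smc3+/-, with 13.1% and 12.7% of all genes. Without the 3 libraries that kept more Yy1 reads, Yy1-/- replicates 3 and 4 and Yy1-/- Smc3+/- replicate 3, the numbers that rose were 20 and 18, with 12.5% and 8.95% of all genes. On log2 TPM, tested with limma, the median of all genes was itself at -0.26 in Yy1-/- and -0.16 in Yy1-/- Smc3+/-, with 10.2% of genes higher and 27.3% lower in the first and 9.11% and 21.2% in the second. There 11 members rose and 9 fell in Yy1-/-, and 16 rose and 9 fell in Yy1-/- Smc3+/-, with members' medians of 0.05 and 0.14. Of the 40 members called in Yy1-/-, 13 kept their call in each of the 19 alternatives run, as did 15 of the 33 called in Yy1-/- Smc3+/-, and none changed sign.

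**Figure D1:**
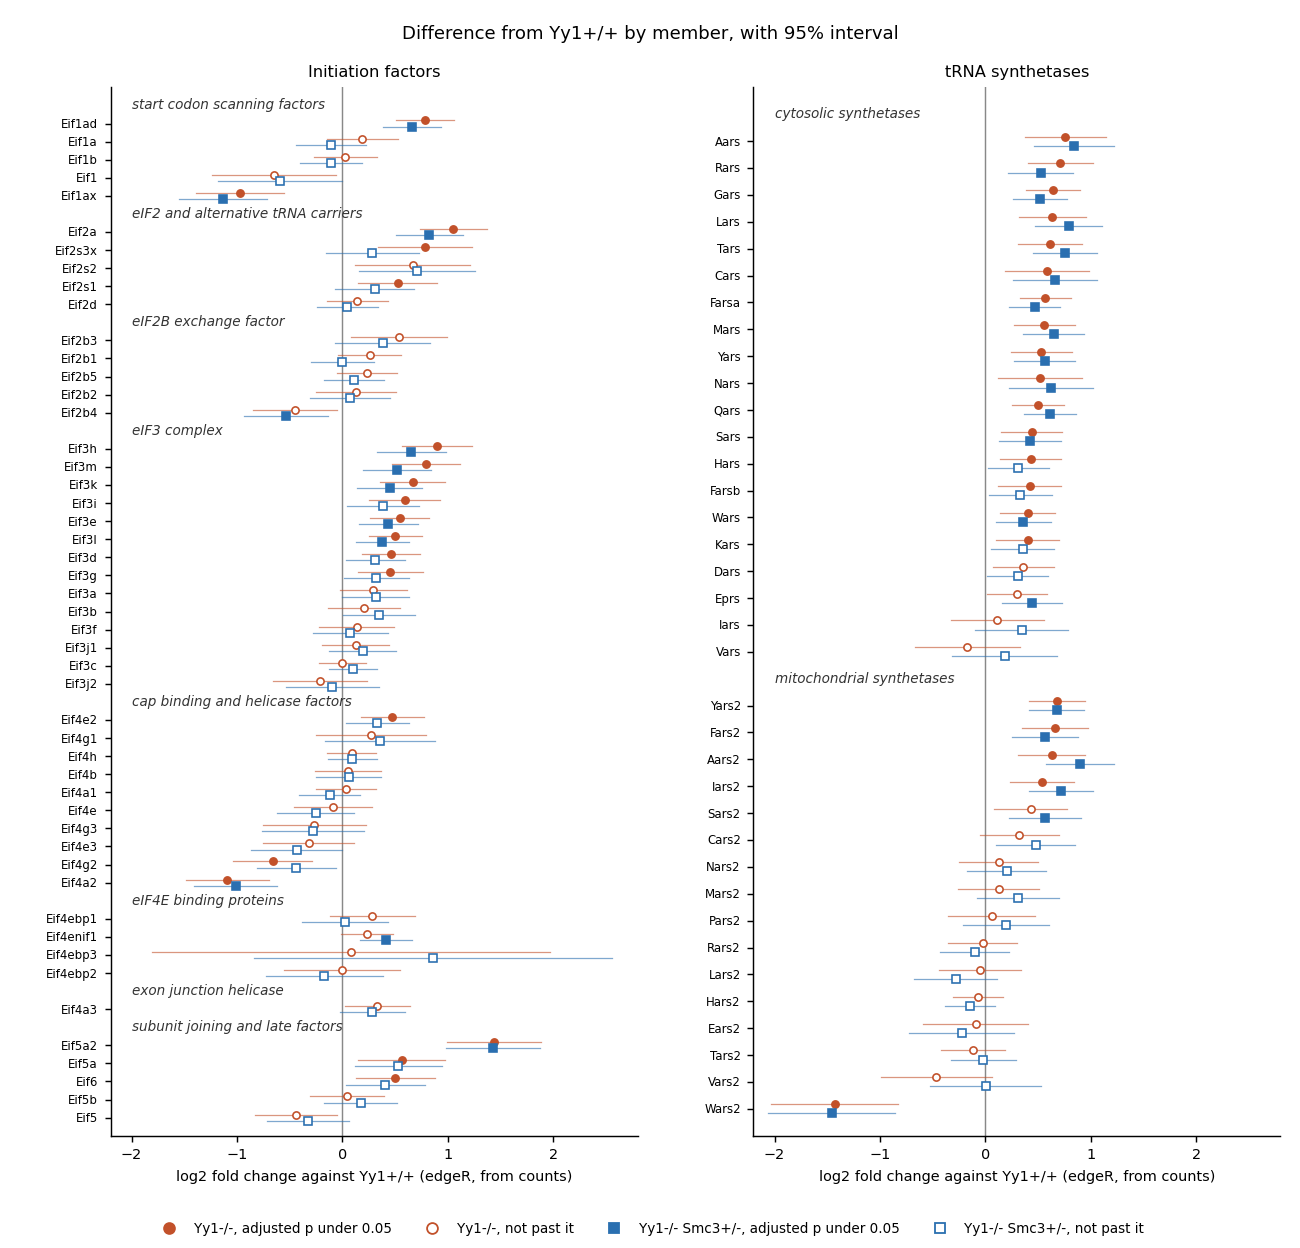
Log2 fold change against Yy1+/+ from counts (x axis, edgeR) with its 95% interval, for 85 members by role (y axis); circles are Yy1-/-, squares Yy1-/- Smc3+/-, and filled symbols passed an adjusted p of 0.05. Most cytosolic synthetases lie to the right of 0, while Eif1ax, Eif4a2 and Wars2 lie near or beyond -1 in both.

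The levels of the members ranged from a mean of 1.44 TPM to 2820 TPM over the 12 libraries, with a median member at 80.3 TPM and 35 members at 100 TPM or more. Eif5a was the most abundant at 2820 TPM, followed by Eif4a1 at 779, Eif1 at 594 and Eif3k at 515. Eif4a1 was above Eif3k in every library, while Eif1 changed places with each of them between libraries, so the place of Eif1 among them is not set. At the low end, 5 members lay under 10 TPM (Eif4ebp2, Eif4ebp3, Eif5a2, Mars2 and Wars2), and Eif5a2 and Wars2 changed in both comparisons.

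The start codon scanning factors hold the small subunit open until it meets AUG, and Eif1ad was listed with them for its eIF1A-like domain. Of these 5 members 1, Eif1ad, rose and 1, Eif1ax, fell in each comparison with Yy1+/+. Of all genes 16.3% rose and 18.8% fell in Yy1-/-, and 13.1% and 16.7% in Yy1-/- Smc3+/-. Eif1ax (ENSMUSG00000067194.6) encodes the eIF1A copy on the X chromosome (chrX:159372178-159389928, GRCm38), and Eif1a the copy on an autosome. Eif1ax was at 40.6, 35.5, 42.2 and 45.5 TPM in Yy1+/+ replicates 1 to 4, at 13.2, 11.8, 19.3 and 25.7 in Yy1-/-, and at 13.3, 18.4, 18.8 and 15.4 in Yy1-/- Smc3+/-. Every library of both Yy1-/- groups lay below every Yy1+/+ library. From counts it fell by 0.97 ± 0.19 (SE) on the log2 scale in Yy1-/- (edgeR adjusted p = 0.0019) and by 1.13 ± 0.19 in Yy1-/- Smc3+/- (edgeR adjusted p = 0.00085), and it kept both calls in all 19 alternatives. Eif1ax is X-linked and the libraries differ in sex makeup, as given above, and the part of this in its fall was not tested. Eif1a, named here after its values were seen, was at 98.8 to 109 TPM in Yy1+/+ and at 61.1 to 106 TPM in the other 8 libraries, with log2 fold changes of 0.19 (edgeR adjusted p = 0.37) and -0.11 (edgeR adjusted p = 0.63). The ratio of Eif1a to Eif1ax in TPM was 2.33 to 3 in Yy1+/+, 4.13 to 7.69 in Yy1-/- and 4.5 to 5.66 in Yy1-/- Smc3+/-, without overlap with Yy1+/+.

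Eif1ad, which encodes a protein with an eIF1A-like domain, went the other way. It was at 63.8, 50.8, 62.9 and 64.2 TPM in Yy1+/+, at 84.7, 68.2, 88.3 and 102 in Yy1-/-, and at 73.1, 83.7, 84.3 and 93.9 in Yy1-/- Smc3+/-. No library of either Yy1-/- group reached down to the Yy1+/+ range. Its log2 fold change was 0.78 ± 0.13 in Yy1-/- (edgeR adjusted p = 0.00058) and 0.66 ± 0.13 in Yy1-/- Smc3+/- (edgeR adjusted p = 0.0021). Eif1ad shares exon sequence with Banf1 on the other strand, and the libraries do not mark the strand, so reads of the 2 genes there cannot be told apart. Eif1, the guardian of start codon choice, was at 729, 1313, 542 and 726 TPM in Yy1+/+ and between 431 and 587 TPM in the other 8 libraries. Its log2 fold changes from counts, -0.65 ± 0.27 and -0.59 ± 0.27, did not pass (edgeR adjusted p = 0.083 and 0.12), whereas on log2 TPM it was lower in both comparisons (-0.79 and -0.65, limma adjusted p = 0.008 and 0.027).

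Of the 5 members that carry the initiator tRNA, 3 rose and 0 fell in Yy1-/-, and the median log2 fold change was 0.67. In Yy1-/- Smc3+/- 1 rose and 0 fell, and the median was 0.31. Without Yy1+/+ replicate 2 and Yy1-/- replicate 1 together 3 rose in each, with 13.1% and 12.7% of all genes. Without the 3 libraries with more Yy1 reads 2 and 1 rose, with 12.5% and 8.95% of all genes. On log2 TPM 1 and 2 rose, where 10.2% and 9.11% of all genes did. Eif2a (ENSMUSG00000027810.14, chr3:58525821-58557501, GRCm38) encodes eIF2A, a single protein that can deliver the initiator tRNA without the eIF2 complex. It was at 36.2, 34.3, 34.9 and 37.9 TPM in Yy1+/+, at 67.3, 51.6, 67.2 and 58.8 in Yy1-/-, and at 50, 63.4, 51.7 and 60.1 in Yy1-/- Smc3+/-. The Yy1+/+ values sat close together and all others lay above them. From counts Eif2a was 2.07-fold higher in Yy1-/- (log2 1.05 ± 0.15, edgeR adjusted p = 0.0002) and 1.77-fold higher in Yy1-/- Smc3+/- (0.82 ± 0.15, edgeR adjusted p = 0.0012), with both calls kept in all alternatives. Part of its exons overlap Serp1 on the other strand.

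The 3 subunits of eIF2 itself are encoded by Eif2s1, the alpha subunit that the stress kinases phosphorylate, Eif2s2 and Eif2s3x. Eif2s1 was at 91.6, 101, 96.5 and 99.8 TPM in Yy1+/+ at 145, 89.9, 106 and 121 in Yy1-/- and at 92.2 to 115 in Yy1-/- Smc3+/-, so the groups overlapped. It rose from counts by 0.53 ± 0.17 on the log2 scale (edgeR adjusted p = 0.032), a call lost in 11 of 19 alternatives, among them without any 1 of Yy1+/+ replicates 1, 3 and 4 and Yy1-/- replicates 1, 3 and 4 (adjusted p from 0.013 to 0.208 over all 19). In Yy1-/- Smc3+/- its value was 0.31 (edgeR adjusted p = 0.21). Eif2s2 was at 79.9, 140, 78.5 and 82.8 TPM in Yy1+/+, at 155, 114, 123 and 120 in Yy1-/- and at 154, 171, 118 and 127 in Yy1-/- Smc3+/-. Yy1+/+ replicate 2 lay inside the range of the other genotypes, and the log2 fold changes of 0.67 ± 0.25 and 0.70 ± 0.25 missed the threshold (edgeR adjusted p = 0.058 and 0.052). Both passed without Yy1+/+ replicate 2.

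Eif2s3x encodes the gamma subunit and lies on the X chromosome, with a close relative on the Y, Eif2s3y, that also makes the protein in male cells. Eif2s3x was at 47, 39, 78 and 46.9 TPM in Yy1+/+, at 75.3, 60.5, 73.8 and 85.6 in Yy1-/-, and at 38.8, 56.8, 73.1 and 54.1 in Yy1-/- Smc3+/-. It rose in Yy1-/- by 0.78 ± 0.21 on the log2 scale of the counts (edgeR adjusted p = 0.011), and in Yy1-/- Smc3+/- the value was 0.29 ± 0.21 (edgeR adjusted p = 0.32). The call was lost on log2 TPM and when Yy1+/+ replicate 2 and Yy1-/- replicate 1 were left out together. Eif2s3y was at 40.5, 0, 0 and 30.6 TPM in Yy1+/+ replicates 1 to 4, at 0, 0, 17 and 0 in Yy1-/-, and at 63.5, 62, 10.8 and 74.4 in Yy1-/- Smc3+/-. Its presence thus differed between and within the groups. In Yy1+/+ and in Yy1-/-, both the highest Eif2s3x (replicates 3 and 4) and the lowest (replicate 2 of each) were in libraries with Eif2s3y at 0. The part of Eif2s3y in the result was not tested. The expected count of Eif2s3x was not whole in any of the 12 libraries, so part of its reads were divided with other genes.

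Of the 5 subunits of eIF2B, the exchange factor that reloads eIF2 with GTP, none rose or fell in Yy1-/- by edgeR, and 2 had an unadjusted p under 0.05. Eif2b4, the delta subunit, was at 64.8, 63.9, 65.1 and 65.5 TPM in Yy1+/+, at 33.8, 28.9, 39.1 and 57.3 in Yy1-/- and at 41.1, 36.8, 45 and 32.9 in Yy1-/- Smc3+/-. All 8 libraries of the Yy1-/- groups were lower in TPM than the 4 tight Yy1+/+ values. From counts it fell by 0.54 ± 0.18 on the log2 scale in Yy1-/- Smc3+/- (edgeR adjusted p = 0.042, lost in 9 of 19 alternatives, among them without any 1 of the Yy1+/+ replicates or of Yy1-/- Smc3+/- replicates 1, 2 and 4, with adjusted p up to 0.122), and the value in Yy1-/- was -0.45 ± 0.18 (edgeR adjusted p = 0.073). On log2 TPM it was lower in both comparisons (-0.75 and -0.74, limma adjusted p = 0.0055 and 0.0071). Eif2b2, the most abundant subunit, was at 91.8 to 116 TPM in Yy1+/+, 81.8 to 104 in Yy1-/- and 80.8 to 113 in Yy1-/- Smc3+/-, with log2 fold changes of 0.13 and 0.07 that did not pass (edgeR adjusted p = 0.6 and 0.79).

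The eIF3 complex is the scaffold that joins the small subunit to the mRNA-bound factors. Of its 14 members 8 rose and 0 fell in Yy1-/- (median 0.46), and 5 rose and 0 fell in Yy1-/- Smc3+/- (median 0.33). Without the 3 libraries with more Yy1 reads 5 and 1 rose, with 12.5% and 8.95% of all genes. The 8 that rose in Yy1-/- were Eif3d, Eif3e, Eif3g, Eif3h, Eif3i, Eif3k, Eif3l and Eif3m, and the 5 were Eif3e, Eif3h, Eif3k, Eif3l and Eif3m. The summed level of the complex was 2709 to 3170 TPM in Yy1+/+, 2910 to 3794 in Yy1-/- and 3284 to 3647 in Yy1-/- Smc3+/-. On log2 TPM 3 subunits rose in Yy1-/- and 1 in Yy1-/- Smc3+/-, with medians of 0.17 and 0.16, where 10.2% and 9.11% of all genes rose.

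Eif3h (ENSMUSG00000022312.11, chr15:51786558-51865523, GRCm38), one of the peripheral subunits that yeast lacks, was at 224, 178, 225 and 247 TPM in Yy1+/+, at 392, 270, 349 and 313 in Yy1-/-, and at 335, 310, 266 and 290 in Yy1-/- Smc3+/-. All libraries of both Yy1-/- groups lay above the Yy1+/+ libraries. Its log2 fold change from counts was 0.90 ± 0.15 in Yy1-/- (edgeR adjusted p = 0.00077) and 0.65 ± 0.15 in Yy1-/- Smc3+/- (edgeR adjusted p = 0.0064), and both calls held in all 19 alternatives. Eif3m was at 286, 245, 288 and 316 TPM in Yy1+/+, at 475, 314, 420 and 398 in Yy1-/-, and at 366, 358, 327 and 375 in Yy1-/- Smc3+/-. Only Yy1-/- replicate 2 dipped to the top of the Yy1+/+ range. It rose by 0.80 ± 0.15 on the log2 scale in Yy1-/- (edgeR adjusted p = 0.0014) and by 0.52 ± 0.15 in Yy1-/- Smc3+/- (edgeR adjusted p = 0.019, lost in 5 of 19 alternatives, among them without Yy1+/+ replicate 3 or Yy1-/- Smc3+/- replicate 4, with adjusted p up to 0.063).

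Eif3k, the most abundant subunit per length, was at 473, 388, 424 and 489 TPM in Yy1+/+, at 601, 462, 653 and 588 in Yy1-/- and at 546, 495, 536 and 525 in Yy1-/- Smc3+/-. Its log2 fold changes were 0.67 ± 0.14 (edgeR adjusted p = 0.003) and 0.45 ± 0.14 (edgeR adjusted p = 0.03), the second lost in 10 of 19 alternatives, among them without any 1 of Yy1+/+ replicates 1, 3 and 4 and Yy1-/- Smc3+/- replicates 1, 3 and 4 (adjusted p up to 0.127). Eif3e was at 224 to 265 TPM in Yy1+/+, 250 to 328 in Yy1-/- and 286 to 312 in Yy1-/- Smc3+/-, with log2 fold changes of 0.54 ± 0.13 and 0.44 ± 0.13 (edgeR adjusted p = 0.0059 and 0.022). The first was lost only on log2 TPM (0.25, limma adjusted p = 0.072). The second was lost in 8 of 19 alternatives, among them without any 1 of Yy1+/+ replicates 1 and 3 and Yy1-/- Smc3+/- replicates 1 and 2 (adjusted p up to 0.0852). The other members, Eif3a, Eif3b, Eif3c, Eif3f, Eif3j1 and Eif3j2, were called in neither comparison, with log2 fold changes from -0.21 to 0.29 in Yy1-/-. Levels per length also differed within the complex, from Eif3k at a mean of 515 TPM to Eif3j2 under 20 TPM in every library.

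**Figure D2:**
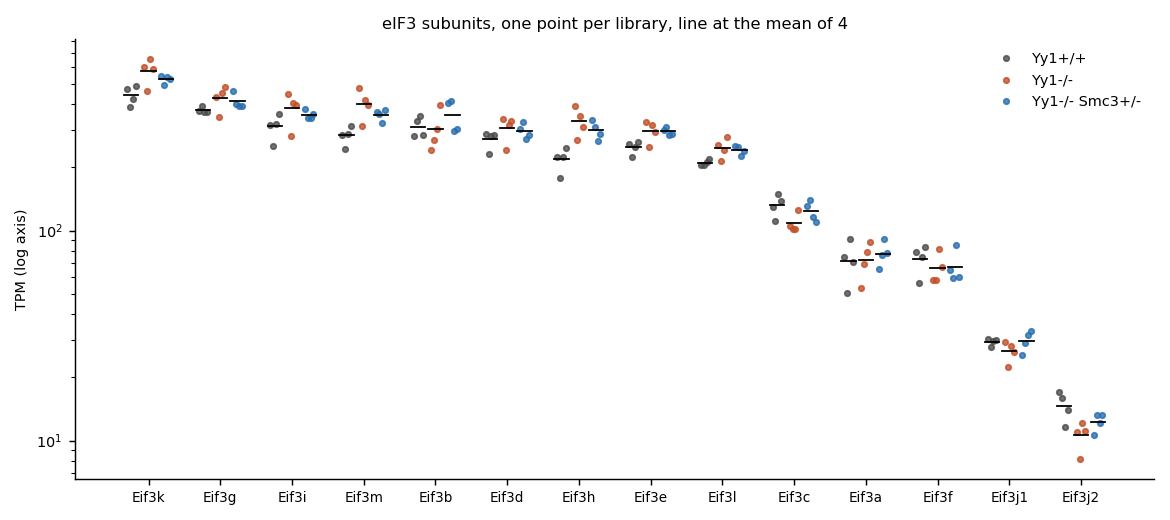
Level of each of the 14 eIF3 members in TPM (y axis, log scale), ordered by mean level (x axis), with 1 point per library and a line at the mean of 4. Eif3h and Eif3m are higher in both Yy1-/- groups, while Eif3a, Eif3f and Eif3j1 overlap between the 3 genotypes.

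The cap-binding and helicase factors were mixed, with 1 of 10 higher and 2 lower in Yy1-/- and 0 higher and 1 lower in Yy1-/- Smc3+/-. Of all genes 16.3% rose and 18.8% fell in the first and 13.1% and 16.7% in the second. No direction is read from these counts. Eif4a2 (ENSMUSG00000022884.15, chr16:23107444-23114136, GRCm38) encodes 1 of the 2 close copies of the eIF4A helicase, which unwinds the 5′ leader of mRNAs. It was at 180, 141, 132 and 166 TPM in Yy1+/+, at 45.5, 57.3, 48.5 and 60.9 in Yy1-/-, and at 46.2, 52.7, 59.3 and 76.7 in Yy1-/- Smc3+/-. The highest library of the Yy1-/- groups was well under the lowest Yy1+/+ library. From counts it was 2.13-fold lower in Yy1-/- (log2 fold change -1.09 ± 0.18, edgeR adjusted p = 0.00067) and 2.02-fold lower in Yy1-/- Smc3+/- (-1.01 ± 0.18, edgeR adjusted p = 0.0013), and -1.54 and -1.41 on log2 TPM.

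Its copy Eif4a1, the major eIF4A of the cell, was at 891, 880, 827 and 903 TPM in Yy1+/+, at 766, 624, 683 and 918 in Yy1-/-, and at 700, 753, 689 and 715 in Yy1-/- Smc3+/-. The log2 fold changes from counts were 0.04 ± 0.13 and -0.12 ± 0.13 (edgeR adjusted p = 0.86 and 0.53). In TPM all Yy1-/- Smc3+/- libraries lay below Yy1+/+, and on log2 TPM the values were -0.24 and -0.29 (limma adjusted p = 0.107 and 0.0644), so the direction for Eif4a1 in Yy1-/- turns with the scale. The ratio of Eif4a1 to Eif4a2 was 4.95 to 6.26 in Yy1+/+, 10.9 to 16.8 in Yy1-/- and 9.32 to 15.1 in Yy1-/- Smc3+/-, so it did not overlap between Yy1+/+ and either group. The expected count of Eif4a2 was not whole in 11 libraries, and the gene also contains small nucleolar RNA genes and overlaps Rfc4 on the other strand.

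Eif4g2 encodes a relative of eIF4G that lacks the part binding eIF4E. It was at 345, 208, 384 and 336 TPM in Yy1+/+, at 125, 167, 123 and 228 in Yy1-/-, and at 187, 277, 149 and 192 in Yy1-/- Smc3+/-. In TPM only Yy1+/+ replicate 2 reached into the range of the other groups. From counts it fell by 0.66 ± 0.17 on the log2 scale in Yy1-/- (edgeR adjusted p = 0.01, kept in all 19 alternatives), and its value was -0.44 ± 0.17 in Yy1-/- Smc3+/- (edgeR adjusted p = 0.072). Eif4e2, a cap-binding protein that represses its bound mRNAs, was at 149 to 182 TPM in Yy1+/+, 205 to 243 in Yy1-/- and 196 to 224 in Yy1-/- Smc3+/-. It rose in Yy1-/- by 0.47 ± 0.14 on the log2 scale (edgeR adjusted p = 0.017, lost in 4 of 19 alternatives, among them without Yy1+/+ replicate 3 or 4 or Yy1-/- replicate 1, with adjusted p up to 0.0713), and its value in Yy1-/- Smc3+/- was 0.33 ± 0.14 (edgeR adjusted p = 0.086).

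The cap-binding protein of general translation, Eif4e, was at 177, 227, 194 and 203 TPM in Yy1+/+, at 158, 116, 160 and 165 in Yy1-/- and at 131, 141, 163 and 130 in Yy1-/- Smc3+/-. In TPM no library of the latter groups reached the Yy1+/+ range, yet from counts the log2 fold changes were -0.09 ± 0.17 and -0.26 ± 0.17 (edgeR adjusted p = 0.71 and 0.28). On log2 TPM they were -0.43 and -0.50 (limma adjusted p = 0.0208 and 0.0104). The ratio of Eif4e to Eif4e2 in TPM was 1.13 to 1.36 in Yy1+/+, 0.564 to 0.736 in Yy1-/- and 0.585 to 0.832 in Yy1-/- Smc3+/-. Within a library the ratio does not depend on how libraries are scaled to each other, and neither of the Yy1-/- groups overlapped with Yy1+/+ in it.

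The eIF4E binding proteins, which hold eIF4E away from eIF4G until mTORC1 phosphorylates them, were listed together with Eif4enif1, to which that role is not given. Of these 4 members 0 were called in Yy1-/- by edgeR (0 also at an unadjusted p under 0.05) and 1 was higher in Yy1-/- Smc3+/-. Eif4ebp1 was at 75.7 to 99.2 TPM in Yy1+/+, 70.2 to 105 in Yy1-/- and 72.4 to 86.5 in Yy1-/- Smc3+/-, and Eif4ebp2 stayed between 3.59 and 9.50 TPM in all 12 libraries. Neither passed (edgeR adjusted p = 0.26 and 0.93 for Eif4ebp1, 0.99 and 0.65 for Eif4ebp2). The 1 that rose was Eif4enif1, which encodes the shuttling eIF4E transporter, at 34.9 to 51.2 TPM in Yy1+/+ and 43.1 to 56 in Yy1-/- Smc3+/- (log2 fold change 0.42 ± 0.11, edgeR adjusted p = 0.015, lost in 6 of 19 alternatives, among them without Yy1+/+ replicate 1 or Yy1-/- Smc3+/- replicate 2, with adjusted p up to 0.289). Eif4a3, a helicase of the exon junction complex that carries an eIF4A name, was at 320 to 374 TPM in Yy1+/+ and 313 to 415 in the other libraries, and did not pass (edgeR adjusted p = 0.09 and 0.15).

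In the group that acts at subunit joining and later, 3 of 5 rose in Yy1-/- and 1 in Yy1-/- Smc3+/-, with 0 lower. Without the 3 libraries with more Yy1 reads 1 rose in each, and without Yy1+/+ replicate 2 and Yy1-/- replicate 1 together 3 did. Of all genes 12.5% and 8.95% rose under the first choice and 13.1% and 12.7% under the second. Eif5a2 (ENSMUSG00000050192.8, chr3:28781276-28798846, GRCm38) encodes the rarer copy of eIF5A, the factor that carries hypusine and helps ribosomes through difficult peptide bonds. It was at 1.66, 1.33, 2.11 and 1.69 TPM in Yy1+/+, at 3.58, 4.56, 3.60 and 3.20 in Yy1-/-, and at 3.23, 3.93, 4.18 and 4.65 in Yy1-/- Smc3+/-. All 8 libraries of the Yy1-/- groups lay above the highest Yy1+/+ library. Its 2.70-fold higher count level in both groups was the largest rise of any member (log2 fold changes 1.44 ± 0.21 and 1.43 ± 0.21, edgeR adjusted p = 0.00025 and 0.00028) and was called in all 19 alternatives.

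Its abundant copy Eif5a was at 2243, 3091, 2155 and 2267 TPM in Yy1+/+, at 2832, 2319, 3299 and 3320 in Yy1-/-, and at 3242, 3034, 3041 and 3000 in Yy1-/- Smc3+/-. Yy1+/+ replicate 2 stood as high as the other genotypes and Yy1-/- replicate 2 as low as Yy1+/+. The log2 fold change was 0.56 ± 0.19 in Yy1-/- (edgeR adjusted p = 0.036, lost in 12 of 19 alternatives with adjusted p up to 0.221) and 0.53 ± 0.19 in Yy1-/- Smc3+/- (edgeR adjusted p = 0.052). Eif6, which keeps the large subunit from joining too early, was at 231 to 314 TPM in Yy1+/+, 246 to 357 in Yy1-/- and 296 to 352 in Yy1-/- Smc3+/- (log2 fold changes 0.50 ± 0.17 and 0.41 ± 0.17, edgeR adjusted p = 0.039 and 0.096), and its call was lost in 11 of 19. For both genes the call in Yy1-/- was lost without any 1 of Yy1+/+ replicates 1, 3 and 4 or Yy1-/- replicates 1, 3 and 4. Eif5a2 lay far below its copy in every library, with Eif5a 508 to 1040 times higher in Yy1-/- and 645 to 1000 times higher in Yy1-/- Smc3+/-, against 1020 to 2320 times in Yy1+/+, so that this ratio overlapped between Yy1-/- and Yy1+/+.

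**Figure D3:**
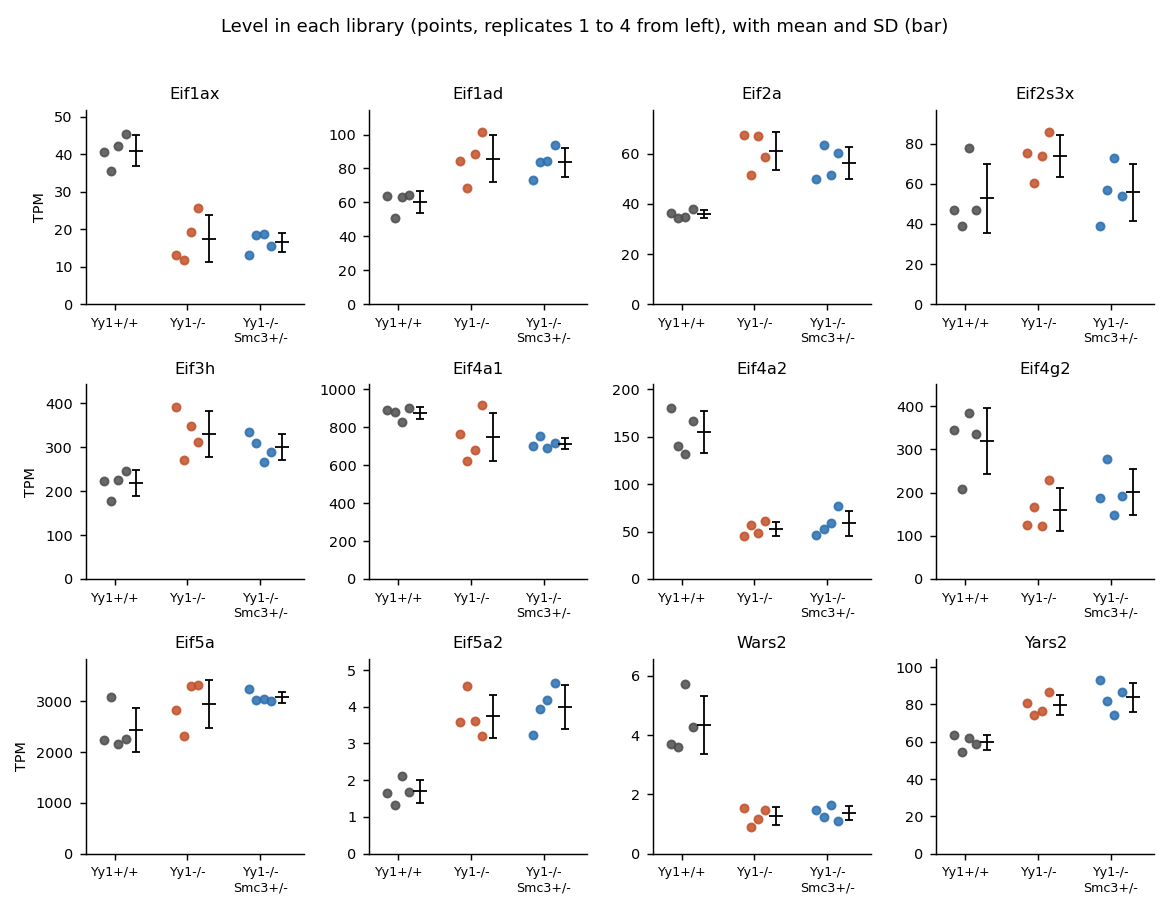
Level in TPM (y axis) of 12 members in each library (points, replicates 1 to 4 from the left within a genotype on the x axis), with the mean and SD of 4 libraries beside them. Eif1ax, Eif4a2 and Wars2 are lower and Eif2a, Eif3h, Eif5a2 and Yars2 higher in all 8 libraries of the Yy1-/- groups than in Yy1+/+.

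The cytosolic synthetases were the group with the most rises from counts. In Yy1-/- 16 of the 20 rose and 0 fell (median log2 fold change 0.51), and in Yy1-/- Smc3+/- 14 rose and 0 fell (median 0.49). Only 2 of them, Gars and Rars, kept their call in Yy1-/- in all 19 alternatives, and 6 did in Yy1-/- Smc3+/-: Aars, Gars, Lars, Mars, Qars and Tars. On log2 TPM 2 rose in Yy1-/- and 8 in Yy1-/- Smc3+/-, where 10.2% and 9.11% of all genes rose. There 18 and 19 of the 20 log2 fold changes were above 0 (medians 0.24 and 0.31). Without the 3 libraries with more Yy1 reads the numbers that rose from counts were 8 and 9, with 12.5% and 8.95% of all genes.

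Gars, which loads glycine in both the cytosol and mitochondria (ENSMUSG00000029777.10, chr6:55038007-55079500, GRCm38), was at 138, 140, 156 and 142 TPM in Yy1+/+, at 195, 164, 184 and 198 in Yy1-/-, and at 179, 209, 165 and 176 in Yy1-/- Smc3+/-. All 8 libraries of the Yy1-/- groups exceeded the highest Yy1+/+ value. From counts it was 1.56-fold higher in Yy1-/- (log2 0.64 ± 0.12, edgeR adjusted p = 0.0013) and 1.43-fold higher in Yy1-/- Smc3+/- (0.52 ± 0.12, edgeR adjusted p = 0.0059). Farsa, the catalytic subunit of the phenylalanine enzyme, was at 168, 144, 174 and 168 TPM in Yy1+/+, at 191, 175, 201 and 235 in Yy1-/-, and at 224, 205, 186 and 180 in Yy1-/- Smc3+/-. Neither group overlapped with Yy1+/+, although the lowest Yy1-/- library was close to the highest Yy1+/+ library. Its log2 fold changes were 0.57 ± 0.11 and 0.47 ± 0.11 (edgeR adjusted p = 0.0019 and 0.0073), and both calls were lost on log2 TPM and kept in the other alternatives.

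A set of 8 cytosolic synthetases sits together in the multi-synthetase complex, and 5 of the 8 rose in each comparison with 0 lower (medians 0.45 and 0.48). Rars, for arginine, was at 88.7, 75.5, 90 and 84 TPM in Yy1+/+, at 132, 88.1, 115 and 120 in Yy1-/-, and at 98, 117, 104 and 110 in Yy1-/- Smc3+/-. Only Yy1-/- replicate 2 fell within the Yy1+/+ range. Its log2 fold change was 0.71 ± 0.14 (edgeR adjusted p = 0.0021) and 0.53 ± 0.14 (edgeR adjusted p = 0.014). The second was lost in 4 of 19 alternatives, on log2 TPM, without Yy1-/- Smc3+/- replicate 2 and without the 3 libraries with more Yy1 reads (adjusted p up to 0.0713). Lars, for leucine, was at 46.9 to 68.3 TPM in Yy1+/+, 61 to 82.8 in Yy1-/- and 66 to 118 in Yy1-/- Smc3+/-, with log2 fold changes of 0.63 ± 0.15 and 0.79 ± 0.15 (edgeR adjusted p = 0.005 and 0.0016). Qars, for glutamine, was at 35.9 to 50.3 TPM in Yy1+/+, 47.9 to 55.9 in Yy1-/- and 55.2 to 66.9 in Yy1-/- Smc3+/- (0.50 ± 0.11 and 0.62 ± 0.11, edgeR adjusted p = 0.0047 and 0.0015). The difference between Yy1-/- Smc3+/- and Yy1-/- passed for none of these 3 enzymes by edgeR. On log2 TPM the calls of Lars and Qars in Yy1-/- were lost (limma adjusted p = 0.128 and 0.186).

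Mars, for methionine, was at 84.1, 87.6, 107 and 92.6 TPM in Yy1+/+, at 116, 99.3, 101 and 137 in Yy1-/-, and at 130, 157, 104 and 124 in Yy1-/- Smc3+/-, with log2 fold changes of 0.56 ± 0.13 and 0.65 ± 0.13 (edgeR adjusted p = 0.006 and 0.0031). Its exons overlap Ddit3 on the other strand, and the libraries do not mark the strand. Ddit3 was at 44 to 228 TPM in Yy1+/+ and 26.8 to 59.4 TPM elsewhere, and its part in the values of Mars was not tested. Tars, for threonine, was at 47 to 58.4 TPM in Yy1+/+, 61.4 to 74.9 in Yy1-/- and 66.9 to 99 in Yy1-/- Smc3+/-, both without overlap with Yy1+/+ (0.61 ± 0.14 and 0.76 ± 0.14, edgeR adjusted p = 0.0047 and 0.0015). In Yy1-/- the calls of Mars and Tars were lost on log2 TPM (limma adjusted p = 0.138 and 0.0546). That of Tars was also lost without the 3 libraries with more Yy1 reads. Kars, for lysine, was at 153 to 167 TPM in Yy1+/+, 134 to 201 in Yy1-/- and 155 to 200 in Yy1-/- Smc3+/-, and its rise of 0.40 ± 0.14 in Yy1-/- (edgeR adjusted p = 0.039) was lost in 13 of 19 alternatives, among them without any 1 of Yy1+/+ replicates 1, 3 and 4 and Yy1-/- replicates 1, 3 and 4 (adjusted p up to 0.491).

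The 4 cytosolic enzymes that did not pass in Yy1-/- were Dars, Eprs, Iars and Vars. Eprs, a fused enzyme for glutamate and proline, was at 66.3 to 107 TPM in Yy1+/+, 69.8 to 113 in Yy1-/- and 90.4 to 122 in Yy1-/- Smc3+/-. It rose in Yy1-/- Smc3+/- (0.44 ± 0.13, edgeR adjusted p = 0.023), a call lost in 8 of 19 alternatives, among them without Yy1+/+ replicate 1 or 4 or Yy1-/- Smc3+/- replicate 2 (adjusted p up to 0.277), and its value in Yy1-/- was 0.30 ± 0.13 (edgeR adjusted p = 0.09). Vars, for valine and the most abundant synthetase, was at 236, 185, 318 and 251 TPM in Yy1+/+, at 120, 197, 146 and 271 in Yy1-/-, and at 331, 291, 148 and 216 in Yy1-/- Smc3+/-. Its values overlapped in all 3 genotypes (-0.17 ± 0.23 and 0.18 ± 0.23, edgeR adjusted p = 0.59 and 0.59). Iars, for isoleucine, was at 32 to 72.7 TPM in Yy1+/+, 35.3 to 62.5 in Yy1-/- and 45.8 to 84.8 in Yy1-/- Smc3+/- (0.11 ± 0.20 and 0.35 ± 0.20, edgeR adjusted p = 0.7 and 0.22).

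The mitochondrial synthetases, nuclear-encoded enzymes that serve the mitochondrial ribosome, were less uniform. Of 17 members 4 rose and 1 fell in Yy1-/- (median 0.13), and 6 rose and 1 fell in Yy1-/- Smc3+/- (median 0.20). Of all genes 16.3% and 13.1% rose there and 18.8% and 16.7% fell. The 4, which also rose in Yy1-/- Smc3+/-, were Aars2, Fars2, Iars2 and Yars2. The median in Yy1-/- turned to -0.17 on log2 TPM and to -0.01 without Yy1+/+ replicate 2 and Yy1-/- replicate 1, so no direction is given for the group. Yars2 (ENSMUSG00000022792.16, chr16:16302965-16309640, GRCm38), for tyrosine, was at 63.4, 54.5, 62.1 and 58.8 TPM in Yy1+/+, at 81, 74.4, 76.2 and 86.5 in Yy1-/-, and at 92.9, 81.6, 74.1 and 86.5 in Yy1-/- Smc3+/-. The Yy1+/+ libraries were all lower than the other 8. It was 1.60-fold higher from counts in both comparisons (log2 0.68 ± 0.12 in each, edgeR adjusted p = 0.0011 and 0.0013), and both calls held in all 19 alternatives.

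Wars2 (ENSMUSG00000004233.14, chr3:99141068-99239186, GRCm38), for tryptophan, had the largest fall of any member. It was at 3.71, 3.60, 5.73 and 4.28 TPM in Yy1+/+, at 1.54, 0.89, 1.17 and 1.46 in Yy1-/-, and at 1.49, 1.23, 1.66 and 1.12 in Yy1-/- Smc3+/-. Each of the 8 lower libraries lay under every Yy1+/+ library. From counts it was 2.69-fold lower in Yy1-/- (log2 fold change -1.43 ± 0.28, edgeR adjusted p = 0.0019) and 2.75-fold lower in Yy1-/- Smc3+/- (-1.46 ± 0.28, edgeR adjusted p = 0.002), in all 19 alternatives as well. Aars2, for alanine, was at 20.2, 13.5, 18.9 and 17.4 TPM in Yy1+/+, at 16.5, 23.7, 19.6 and 30.4 in Yy1-/-, and at 30.9, 30.4, 23.2 and 29.6 in Yy1-/- Smc3+/-. In Yy1-/- its TPM overlapped with Yy1+/+ while its scaled counts did not (0.63 ± 0.15, edgeR adjusted p = 0.0054), and in Yy1-/- Smc3+/- neither did (0.90 ± 0.15, edgeR adjusted p = 0.00069). On log2 TPM its value in Yy1-/- was 0.34 and did not pass (limma adjusted p = 0.199).

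Fars2, for phenylalanine, was at 42.3 to 51 TPM in Yy1+/+, 46.4 to 73.4 in Yy1-/- and 55.5 to 63.2 in Yy1-/- Smc3+/- (0.66 ± 0.15 and 0.57 ± 0.15, edgeR adjusted p = 0.0039 and 0.011), with exons that overlap other genes on the opposite strand. Without the 3 libraries with more Yy1 reads its value in Yy1-/- was 0.49 and did not pass (edgeR adjusted p = 0.0618), and on log2 TPM its values were 0.38 in each comparison (limma adjusted p = 0.0457 and 0.0505). The most abundant mitochondrial enzyme was Lars2, at 223, 123, 206 and 261 TPM in Yy1+/+, at 130, 147, 183 and 184 in Yy1-/- and at 141, 120, 175 and 140 in Yy1-/- Smc3+/-. It overlapped between genotypes and did not pass (edgeR adjusted p = 0.86 and 0.26).

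Cytosolic and mitochondrial enzymes for the same amino acid were set side by side in 17 pairings, in which Eprs stands beside both Ears2 and Pars2 and Fars2 beside both Farsa and Farsb. The log2 fold change of the cytosolic enzyme was the larger in 13 of 17 pairings in Yy1-/- and in 11 of 17 in Yy1-/- Smc3+/-. Both enzymes rose in 4 pairings in each comparison, and in 8 only the cytosolic enzyme was called, as higher. That count does not show that the enzymes of a pairing differ, since their difference was not tested. For tryptophan both enzymes were called, in opposite directions: Wars rose (0.40 ± 0.12 and 0.36 ± 0.12, edgeR adjusted p = 0.019 and 0.038, lost in 7 and 14 of 19 alternatives, with adjusted p up to 0.475 and 0.372) while Wars2 fell. The call of Wars in Yy1-/- was lost without Yy1+/+ replicate 3 or 4 or Yy1-/- replicate 1, and that in Yy1-/- Smc3+/- without any 1 of the Yy1+/+ replicates or of its own replicates 1, 2 and 4. The summed TPM of the 20 cytosolic enzymes was 2.61 to 3.43 times that of the 17 mitochondrial enzymes in Yy1+/+, 3.30 to 3.84 times in Yy1-/- and 3.27 to 3.95 times in Yy1-/- Smc3+/-, with overlap through Yy1+/+ replicate 2.

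**Figure D4:**
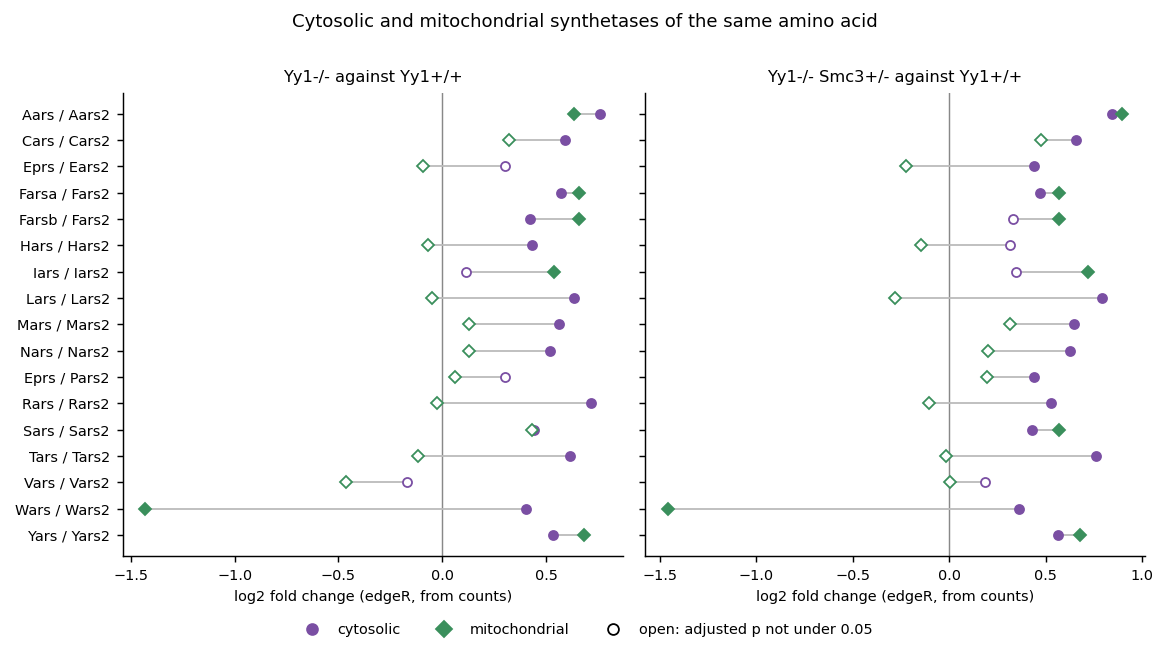
Log2 fold change from counts against Yy1+/+ (x axis) of cytosolic (circles) and mitochondrial (diamonds) synthetases of the same amino acid (y axis), joined by a line, in Yy1-/- (left) and Yy1-/- Smc3+/- (right); filled symbols passed an adjusted p of 0.05. The cytosolic enzyme lies further right in 13 of 17 pairings on the left and 11 of 17 on the right, and Wars2 lies far left in both.

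Promoter windows from RefSeq (GRCm38.p6, 250 bases before to 50 bases after a start) were found for 64 members, in 77 windows. The longer YY1 motif AANATGGCG was sought on both strands and found in 8 members, in 13% of member windows. It was in 2.38% of all 32851 windows, in 3.12% of those of protein-coding genes and in 5.15% of those of genes with a mean of at least 1 TPM. The shorter core ATGGCG, which the longer motif contains, was in 26% of member windows and in 15.3% of windows of genes with that mean. By class, the longer motif was in 6 of 27 synthetase windows (22.2%, 5 genes) and in 4 of 50 initiation factor windows (8%, 3 genes). Some genes have more than 1 window, so a site can be counted more than once. The longer motif was as frequent in windows of members not called in Yy1-/- (5 of 41, 12.2%) as in those of members that rose there (4 of 33, 12.1%). The E-box CACGTG was in 22.1% of member windows against 10.1% of windows of genes with that mean, and the ETS motif CCGGAAG in 33.8% against 18.3%. The ATF4 composite motif TGATGNAA was in 5 of 27 synthetase windows (18.5%, in Aars, Gars, Iars, Tars and Yars) against 2.28% of windows of genes with that mean. In initiation factor windows it was in 1 of 50 (2%).

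The 4 members with the longer motif and the smallest p in Yy1-/- are shown, with the motif in capitals. Wars2 fell and the other three rose.
Yars2, chr16:16302905-16302994, plus strand: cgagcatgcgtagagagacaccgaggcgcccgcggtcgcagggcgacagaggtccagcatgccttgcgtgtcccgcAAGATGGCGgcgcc
Wars2, chr3:99141030-99141119, plus strand: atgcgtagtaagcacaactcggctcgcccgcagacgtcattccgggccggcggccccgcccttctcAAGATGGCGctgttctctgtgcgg
Aars2, chr17:45506772-45506861, plus strand: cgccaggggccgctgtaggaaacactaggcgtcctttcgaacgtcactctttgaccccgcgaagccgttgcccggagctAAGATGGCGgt
Farsa, chr8:84856852-84856941, plus strand: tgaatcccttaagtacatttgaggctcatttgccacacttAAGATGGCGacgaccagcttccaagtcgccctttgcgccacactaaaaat
In all 4 the capitals read the same 9 letters on the strand of the gene. In Yars2, Wars2 and Aars2 the motif lies after the RefSeq start, at bases 17 to 25, 7 to 15 and 20 to 28, and its ATG is the start codon annotated in GENCODE M21. In Farsa it lies before the start, at bases -94 to -86, and its ATG is not an annotated start codon. The other members with the motif were Eif2b4, Eif4e, Eif4g3 and Lars2. A match of letters is a description and does not show that YY1 binds there.

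Set against Yy1-/-, the Yy1-/- Smc3+/- libraries showed no called member: 0 of 86 members passed in either direction, by edgeR's quasi-likelihood test and by DESeq2, where 0.036% of all genes were higher and 0% lower by edgeR. An unadjusted p under 0.05 was reached by 1 member, Eif2s3x (log2 fold change -0.50 ± 0.21, with a 95% interval from -0.94 to -0.05, edgeR adjusted p = 0.76), where 6.46% of all genes reached it. The scaled counts of all 86 members overlapped between these genotypes, where 1.13% of all genes lay wholly above and 0.883% wholly below. For 85 of them the 95% interval of the log2 fold change lay between -1 and 1, which leaves out a halving or a doubling but not smaller differences. The exception was Eif4ebp3, the rarest member at 0 to 3.28 TPM per library, with an interval from -0.97 to 2.53. Members such as Eif2s1, Eif3d or Kars, which passed in Yy1-/- and not in Yy1-/- Smc3+/-, are therefore not shown to differ between them.

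Other genes of the pathway were read from lists in the same fits. In these, 16.3% of all genes rose and 18.8% fell in Yy1-/-, and 13.1% and 16.7% in Yy1-/- Smc3+/-. Among scaffolds of the synthetase complex, Aimp1 and Aimp2 rose in Yy1-/- (0.59 ± 0.17 and 0.49 ± 0.17, edgeR adjusted p = 0.016 and 0.042), 2 of 3 in all, and 0 of 3 passed in Yy1-/- Smc3+/- (1 at an unadjusted p under 0.05). Of 18 tested ATF4 pathway genes 5 rose and 1 fell in Yy1-/-, and 7 rose and 1 fell in Yy1-/- Smc3+/-. Mthfd2, of mitochondrial folate metabolism, was at 16.4 to 26.8 TPM in Yy1+/+, 53.7 to 92.2 in Yy1-/- and 63.4 to 67.2 in Yy1-/- Smc3+/- (1.94 ± 0.22 and 1.78 ± 0.22, edgeR adjusted p = 4.3e-05 and 8.3e-05). Psat1, of serine synthesis, rose by 1.07 ± 0.15 and 0.91 ± 0.15 (edgeR adjusted p = 0.00025 and 0.00082). The gene that fell in both was Ddit3, whereas Atf4 mRNA itself was at 111 to 292 TPM in Yy1+/+ and 114 to 162 elsewhere and did not pass (edgeR adjusted p = 0.53 and 0.26).

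Of the 4 eIF2 kinases and 2 phosphatase subunits, 0 rose and 1 fell in Yy1-/-, and 0 were called in Yy1-/- Smc3+/- (2 at an unadjusted p under 0.05). The one that fell was Ppp1r15a, the stress-induced phosphatase subunit, at 265, 1043, 40.4 and 212 TPM in Yy1+/+ and 15.4 to 73.6 TPM in Yy1-/- (-3.37 ± 0.91, edgeR adjusted p = 0.012). The lowest Yy1+/+ library lay within the range of Yy1-/-. Among 12 mTORC1 signalling genes 1 rose and 2 fell in Yy1-/-, and Pdcd4, an inhibitor of the eIF4A helicase, fell in both comparisons (-0.96 ± 0.25 and -0.94 ± 0.25, edgeR adjusted p = 0.01 and 0.014). Of 10 elongation and termination factors 2 rose and 1 fell in Yy1-/-, and the 1 that fell, also in Yy1-/- Smc3+/-, was Eef2k, the kinase that inactivates eEF2 (-1.11 ± 0.17 and -0.95 ± 0.17, edgeR adjusted p = 0.00034 and 0.0011). Of 9 mitochondrial translation factors 3 rose and 1 fell in Yy1-/-, and 2 rose and 2 fell in Yy1-/- Smc3+/-. With 16.3% of all genes higher and 18.8% lower in Yy1-/-, such counts in short lists are not read as results about the lists.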

How the data were processed

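RNA of 12 libraries, 4 per genotype, was made into cDNA with a SMART-Seq v4 kit, which does not mark the strand, per the labels' protocols. The tools named are STAR 2.5.2b and RSEM 1.3.0 with build mm10, per the submitters' processing notes, and the sources used here do not give their settings. Per the file headers, the deposited RSEM tables hold an expected count per gene, in which the authors' counting divides reads shared between genes, and a TPM. The deposited effective length, another value per gene in nucleotides, entered only an alternative offset. Of the members, 20 had an expected count that was more than 1e-06 from a whole number in at least 1 library, and 33 had exons overlapped by another gene, 25 of them on the other strand (GENCODE M21, GRCm38).

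Symbols came from a table of gene names: 55094 identifiers matched with their version, 300 with another version and 93 not at all. Expected counts were rounded and tested with edgeR 4.0.16 (R 4.3.3) in all 12 libraries, after its filter (minimum count 10, minimum total 15), with TMM factors, 1 term per genotype and quasi-likelihood F tests, adjusted by Benjamini-Hochberg over 16649 genes. Alternatives were DESeq2 1.42.0, limma 3.58.1 on log2(TPM + 1) and log2(TPM + 0.1), other scaling, filters and dispersions, and libraries left out; values on log2 TPM in the text are those with 0.1 added. The added value pulls fold changes of genes near it towards 0. The script was tested on simulated counts. The members, lists and tests were chosen with earlier results of these data known. Named members are, per role group, the most abundant, up to 3 with the smallest p among those called in each comparison with Yy1+/+, those called against their group, and a fixed few; others are named after their values were seen, where a count is broken down. One member, included in the counts, is left out of the figures and pairings and not reported here.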

Additional observations from a re-analysis of the deposited data

Results flagged for a closer look

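In 5 of the 123 sets of 4 libraries examined, 1 library's TPM stood far from the other 3 (its gap to the nearest of them, as a share of the whole range, passed Dixon's 95% critical value); chance flags about 1 in 20 such sets. Yy1+/+ replicate 2, the deepest library, gave 3 of them: Eif1ad was lowest there at 50.8 TPM, Eif2s2 highest at 140.1 TPM and Eif5a highest at 3091 TPM. Eif4e was lowest in Yy1-/- replicate 2, at 115.7 TPM, and Eif5a was highest in Yy1-/- Smc3+/- replicate 1, at 3242 TPM. Without Yy1+/+ replicate 2, Eif2s2 passed in both comparisons with Yy1+/+ (edgeR).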

How the results depend on the processing

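On log2 TPM with limma, 11 members were higher and 9 lower in Yy1-/- against Yy1+/+, and 16 were higher and 9 lower in Yy1-/- Smc3+/- against Yy1+/+, with either added value. Without the 3 libraries with more Yy1 reads, chosen after the data were seen, 20 and 18 were higher, with 12.5% and 8.95% of all genes. Leaving out 1 library at a time gave 24 to 42 higher and 4 to 5 lower in Yy1-/-. Of all genes 12.6% to 16.5% were higher there and 16% to 18.8% lower. In Yy1-/- Smc3+/- it gave 18 to 38 higher and 3 to 4 lower, with 9.12% to 12.4% and 12.9% to 15.9% of all genes. The 18 came when Yy1+/+ replicate 1 was left out, and 19 when replicate 2 of Yy1-/- Smc3+/- was. Each of these leaves fewer libraries, and the cause of the difference on log2 TPM was not tested. The other alternatives, among them DESeq2, size factors by relative log expression, a length offset, no filter and a stricter one, kept these counts within 1.5 times. Between Yy1-/- Smc3+/- and Yy1-/- no alternative called a member.

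For the named members, 124 values lost their call in an alternative, 41 gained one and none changed sign while called. Of 1346 values called in neither fit, 106 had the other sign. No paired analysis was possible because the labels give no replicate numbers, and those used here only name the libraries. With 4 libraries per genotype, differences smaller than the intervals were not detectable, and genes with overlapping exons or near copies are uncertain.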
